A study of Mus musculus with 5 samples.

Results

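The 8 genes described here encode mouse receptors of natural killer (NK) cells and of phagocytes, together with a signalling chain that several of them share: Klrb1a, Klrb1b, Klrb1c and Klrb1f of the NKR-P1 family, Ncr1, the Fc receptors Fcgr3 and Fcgr2b, and Fcer1g. They were taken by gene symbol from the 35275 genes of the deposited expression table, and all 8 had a row in it. Their levels were compared between T cells sorted from mouse spleen: CD8 Treg (regulatory CD8+ T cells, 1 library), CD4 Treg (regulatory CD4+ T cells, 2 libraries) and CD49lo (2 libraries). The series sets out to compare both regulatory populations with effector-like CD8+ cells. No label defines CD49lo, which is taken as that population because it is the one left over. All 5 libraries came from wild-type C57BL/6 mice that were 3 months old. The cells were enriched for CD8 before staining and sorting, and no treatment or altered allele is named for any group. The labels give neither the sort markers nor whether replicates came from separate animals or pools. The p-values therefore rest on a spread between libraries that may be no more than technical, and the CD8 Treg library has no replicate.

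Most receptors in this group have no signalling motif of their own and pair with an adaptor. FcRγ, the product of Fcer1g, carries an immunoreceptor tyrosine-based activation motif (ITAM), which recruits the kinases Syk and ZAP-70 once phosphorylated. NKp46 (Ncr1), NK1.1 (Klrb1c) and the low-affinity IgG receptor FcγRIII (Fcgr3) signal through it. FcγRIIB (Fcgr2b) and NKR-P1B (Klrb1b) instead carry inhibitory motifs (ITIMs) that recruit phosphatases. In the mouse spleen, NKp46 and NK1.1 are best known as markers of NK cells, FcγRIIB of B cells and myeloid cells, and FcRγ of NK cells, myeloid cells and mast cells. Mouse CD8 regulatory T cells have been described by surface CD122 (Il2rb) together with Ly49 receptors of the NK type.

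Library depth was 6073243 reads in genes for CD8 Treg, 6203090 and 5441444 for CD4 Treg, and 8354971 and 6564411 for CD49lo. Levels are in RPKM (reads per kilobase of gene length, scaled to the depth of the library). They adjust for gene length and depth only, and the further scaling factors used in the tests (0.934 to 1.04) are not in them. The lineage genes Foxp3 and Cd8b1 set the CD4 Treg libraries apart from the others, as labelled. They do not tell CD8 Treg from CD49lo. Foxp3 was at 0.387 RPKM in CD8 Treg, 146 RPKM in both CD4 Treg libraries, and 1.66 and 0.795 RPKM in CD49lo, while Cd8b1 was at 556 RPKM in CD8 Treg, 9.32 and 8.42 RPKM in CD4 Treg, and 712 and 785 RPKM in CD49lo. Il2rb, the CD122 gene, was at 302 RPKM in CD8 Treg, 267 and 277 RPKM in CD4 Treg, and 152 and 141 RPKM in CD49lo. The CD4 Treg libraries also differed from the other 3 in sex-linked expression: Xist was at 35.5 and 27.2 RPKM in CD4 Treg and at most 0.0834 RPKM elsewhere, and Ddx3y was at 0.0701 and 0 RPKM in CD4 Treg and at least 18.3 RPKM elsewhere. Sex of the cells and CD4 Treg identity cannot be told apart in any comparison with CD4 Treg.

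Ncr1 encodes NKp46, an activating receptor of NK cells and innate lymphoid cells (chr7:4337724-4345164, mm10, plus strand). It was at 18.8 RPKM in CD8 Treg, 0 and 0 RPKM in CD4 Treg replicates 1 and 2, and 5.28 and 7.03 RPKM in CD49lo replicates 1 and 2. The CD8 Treg library stood above both CD49lo libraries, and the CD4 Treg libraries held no read of the gene. These values rest on 171 reads in CD8 Treg, none in CD4 Treg, and 66 and 69 reads in CD49lo. A count of 0 over both CD4 Treg libraries allows up to 0.172 RPKM (3 reads over the group). In bulk samples such as these, fewer cells that express a gene and less of its RNA per cell cannot be told apart. Ncr1 is the gene of the group with the widest contrast between the regulatory populations, and for that reason its promoter is shown here, as the 250 bases before the RefSeq start site (GRCm38.p6, chr7:4337465-4337714, plus strand). The capitals mark matches to the RUNX core TGTGGT, in its forward form 176 bases before the start and as its reverse complement 41 bases before the start.
Ncr1 promoter: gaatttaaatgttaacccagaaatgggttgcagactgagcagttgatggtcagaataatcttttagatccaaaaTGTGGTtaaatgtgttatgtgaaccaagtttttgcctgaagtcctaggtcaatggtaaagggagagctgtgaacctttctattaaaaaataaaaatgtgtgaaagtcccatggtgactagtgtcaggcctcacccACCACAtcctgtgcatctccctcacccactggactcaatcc

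Klrb1c encodes NK1.1, an activating NKR-P1 receptor (chr6:128778485-128789215, mm10, minus strand). It was at 6.53 RPKM in CD8 Treg, 0.676 and 1.47 RPKM in CD4 Treg, and 5.29 and 12.4 RPKM in CD49lo. The CD8 Treg value lay between the CD49lo libraries and above both CD4 Treg libraries. Klrb1f (chr6:129045901-129057471, plus strand) encodes NKR-P1F, a relative without an ITIM. Its level was 2.02 RPKM in CD8 Treg, 0.566 and 1.08 RPKM in CD4 Treg, and 4.06 and 9.99 RPKM in CD49lo, so the groups did not overlap and CD8 Treg stood in the middle. Klrb1b (chr6:128813706-128826331, minus strand), which encodes the inhibitory NKR-P1B, was low throughout. It was at 0.370 RPKM in CD8 Treg (5 reads), 0.289 and 0 RPKM in CD4 Treg (4 and 0 reads), and 0.430 and 1.09 RPKM in CD49lo (8 and 16 reads). CD49lo replicate 2 was the highest of the 5 libraries for these 3 genes.

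Klrb1a (chr6:128609227-128622934, minus strand), which encodes the activating NKR-P1A, was at 0.905 RPKM in CD8 Treg (7 reads), 0.127 and 0 RPKM in CD4 Treg (1 and 0 reads), and 0 and 0 RPKM in CD49lo. It was the only gene of the 8 that missed the minimum for testing (15 reads in total, with 10 or more in some library once scaled to the median depth). The 95% exact Poisson interval of the CD8 Treg level was 0.364 to 1.86 RPKM; intervals from reads cover counting error only. With CD49lo at its floor of 3 reads and the 7 CD8 Treg reads taken as exact, the CD8 Treg level was 5.73-fold higher. Counting error in the 7 reads is not in this ratio, so it is no lower limit. Over CD4 Treg the ratio was 13.4, with an exact interval of 1.72 to 605. Part of the Klrb1a and Klrb1c sequence is the same. The longest identical run of their coding sequences has 108 bases, and the one of Klrb1a and Klrb1b has 85. Windows of 50 bases were taken from the annotated protein-coding transcript with the longest coding sequence. This transcript can differ from the gene model behind the RPKM, as in Klrb1c (1658 bases against a gene length of 2623). Of these windows, 11.0% in Klrb1a, 29.0% in Klrb1b and 29.7% in Klrb1c also occur in another annotated gene, and none in Klrb1f, Ncr1 or Fcer1g. The gene sharing the most windows was Gm44511, which is not one of the 8 (6.20% in Klrb1a, 27.1% in Klrb1b and 23.1% in Klrb1c). How the authors assigned reads that match several genes is not given in the sources used here, so the levels of Klrb1a, Klrb1b and Klrb1c are uncertain to that extent. The promoters of Klrb1a and Klrb1c are shown for the same reason, since these neighbours resemble each other while their levels differed (250 bases before the RefSeq start, GRCm38.p6, minus strand, chr6:128622935-128623184 for Klrb1a and chr6:128788642-128788891 for Klrb1c). Capitals mark GAGGAAG, a PU.1 motif, and further on TGTGGT.
Klrb1a promoter: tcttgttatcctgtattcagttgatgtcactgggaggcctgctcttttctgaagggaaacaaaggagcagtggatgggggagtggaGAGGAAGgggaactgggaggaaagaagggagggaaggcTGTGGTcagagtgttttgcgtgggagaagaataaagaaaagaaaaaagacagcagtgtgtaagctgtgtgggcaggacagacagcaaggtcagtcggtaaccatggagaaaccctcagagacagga
Klrb1c promoter: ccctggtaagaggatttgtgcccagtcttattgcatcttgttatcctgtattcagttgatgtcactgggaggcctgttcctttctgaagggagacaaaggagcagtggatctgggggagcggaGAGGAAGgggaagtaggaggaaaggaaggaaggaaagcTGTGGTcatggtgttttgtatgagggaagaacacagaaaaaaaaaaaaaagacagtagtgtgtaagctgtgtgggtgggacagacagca
Both hold the matches in the same order, at 164 and 126 bases before the start in Klrb1a and at 127 and 89 in Klrb1c.

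Fcer1g (chr1:171229572-171234365, mm10, minus strand) had the highest level of the 8 genes in 4 of the 5 libraries. It was at 26.1 RPKM in CD8 Treg, 5.02 and 0 RPKM in CD4 Treg, and 59.5 and 38.6 RPKM in CD49lo. The groups did not overlap, but the CD4 Treg replicates disagreed, with 21 reads in replicate 1 and none in replicate 2. A count of 0 allows up to 0.818 RPKM in CD4 Treg replicate 2, well below the level in replicate 1, whose 95% exact Poisson interval was 3.11 to 7.68 RPKM. In CD4 Treg replicate 2 the highest of the 8 was Klrb1c.

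Fcgr3 (chr1:171051174-171064935, minus strand), the gene of the activating receptor FcγRIII (CD16), was at 7.95 RPKM in CD8 Treg, 0.598 and 0 RPKM in CD4 Treg, and 12.8 and 10.1 RPKM in CD49lo. Fcgr2b (chr1:170960558-170976547, minus strand), the gene of the inhibitory FcγRIIB, was at 3.07 RPKM in CD8 Treg, 0.0716 and 0.245 RPKM in CD4 Treg, and 3.99 and 6.84 RPKM in CD49lo. For both genes CD8 Treg lay below both CD49lo libraries and above both CD4 Treg libraries, and the activating gene was above the inhibitory one in every library but CD4 Treg replicate 2. These Fc receptors share part of their coding sequence, which is shown because reads wholly within it cannot be placed in one gene rather than the other. The longest identical run has 129 bases, at positions 263 to 391 of the Fcgr3 coding sequence and 278 to 406 of that of Fcgr2b (GENCODE M21).
Fcgr3 and Fcgr2b, shared run: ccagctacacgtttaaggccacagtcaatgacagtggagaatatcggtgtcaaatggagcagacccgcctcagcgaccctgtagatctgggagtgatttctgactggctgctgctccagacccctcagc
Of the 50-base windows of Fcgr3, 12.8% also occur in Fcgr2b and in no other annotated gene. Of those of Fcgr2b, 12.5% occur in another gene, spread over 145 genes, so its level may be uncertain beyond the overlap with Fcgr3. The Fcgr2b transcript searched has 3544 bases, against a gene length of 2250 behind the RPKM. How much of the shared sequence was counted is therefore not known.

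**Figure D1:**
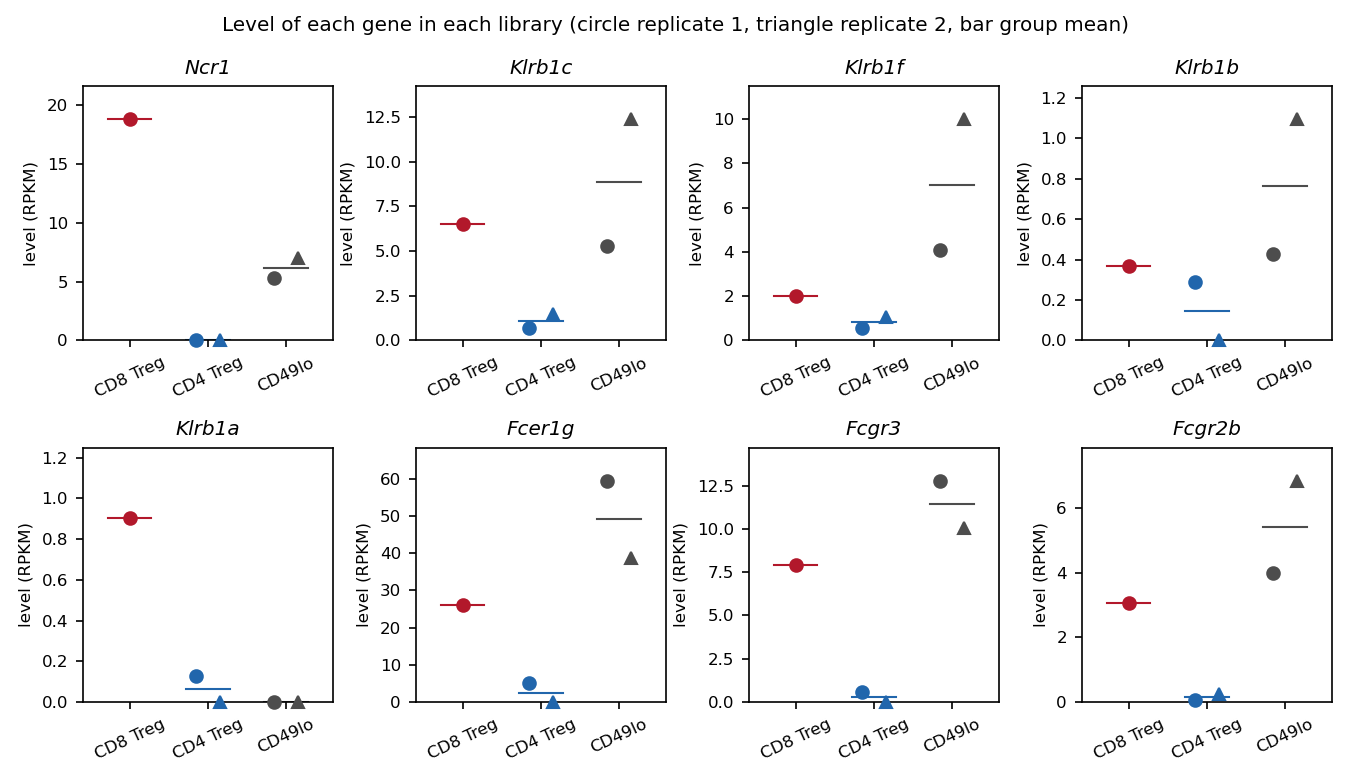
Level of each of the 8 genes (RPKM, linear axis from 0, a scale of its own per panel) in the CD8 Treg, CD4 Treg and CD49lo libraries; points are libraries and bars are group means. CD4 Treg is lowest or tied with the lowest for every gene but Klrb1a, and CD8 Treg is the highest library for Ncr1 (18.8 RPKM) and Klrb1a (0.905 RPKM).

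Summed over the 8 genes, the level was 65.8 RPKM in CD8 Treg, 7.35 and 2.79 RPKM in CD4 Treg, and 91.3 and 86.0 RPKM in CD49lo. Within the CD8 Treg library the order was Fcer1g, Ncr1, Fcgr3, Klrb1c, Fcgr2b, Klrb1f, Klrb1a and Klrb1b. In that library the 95% exact Poisson intervals of neighbours in the order overlapped, apart from those of Ncr1 and Fcgr3 and of Klrb1c and Fcgr2b. In CD49lo, Fcer1g averaged 49.1 ± 14.7 RPKM (SD, n = 2) and Fcgr3 11.4 ± 1.93, followed by Klrb1c at 8.83 ± 5.004, Klrb1f at 7.03 ± 4.19, Ncr1 at 6.16 ± 1.24 and Fcgr2b at 5.41 ± 2.01. Among Fcgr3, Klrb1c, Klrb1f, Ncr1 and Fcgr2b, neighbouring means differed by less than the larger of the SDs. Fcer1g above these genes and Klrb1b (0.762 ± 0.470) below them stood clear of it. Genes further apart in the order could also be separate. The lower Fcgr3 library (10.1 RPKM) was above the higher one of Klrb1f (9.99), Ncr1 (7.03) and Fcgr2b (6.84). In CD4 Treg the highest mean was that of Fcer1g, at 2.51 ± 3.55 RPKM (SD, n = 2), and the only genes with reads in both libraries were Klrb1c, Klrb1f and Fcgr2b.

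Between CD8 Treg and CD49lo, the comparison of regulatory with effector-like CD8+ cells, none of the 7 genes tested passed an adjusted p of 0.05, where 5.21% of all 13298 genes tested did, 3.53% lower and 1.68% higher (limma on log2(RPKM + 0.5), Benjamini-Hochberg over all genes). At an unadjusted p under 0.05 there were 2, Ncr1 and Klrb1f, which lay on opposite sides of 0. Ncr1 had the only positive fold change, 1.68 ± 0.47 on the log2 scale (SE, adjusted p = 0.0829, 95% interval 0.61 to 2.76). The ratio of its reads, scaled to depth, was 3.11, with an exact interval of 2.47 to 3.93 from counting alone. Klrb1f had the lowest, -1.34 ± 0.58 (adjusted p = 0.251, interval -2.65 to -0.03). The others were Fcer1g at -0.73 (interval -3.18 to 1.72), Fcgr2b at -0.56 (-1.72 to 0.60), Klrb1b at -0.42 (-1.82 to 0.98), Fcgr3 at -0.36 (-1.63 to 0.91) and Klrb1c at -0.17 (-1.35 to 1.02), with adjusted p-values of 0.617 to 0.902. These intervals leave room for differences of either sign. The median of the 7 was -0.42, and that of all genes tested -0.04. Of the calls over all genes 32.2% were higher, and 20.3% without scaling. Ncr1 passed with limma-voom on the recovered reads (adjusted p = 0.00409), in a fit of the 3 CD8 Treg and CD49lo libraries alone (0.000849) and without CD4 Treg replicate 1 (0.0373) or replicate 2 (0.0190), in a range of 0.000849 to 0.248 over 17 alternatives. Without CD49lo replicate 2 the sign of Klrb1c turned (0.39, adjusted p = 0.747).

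Between CD8 Treg and CD4 Treg, 5 of the 7 members rose in CD8 Treg and none fell. Of all genes 16.8% were called, 8.51% higher and 8.29% lower. Ncr1 had 171 reads in CD8 Treg and none in CD4 Treg (adjusted p = 0.000110). It was at least 109-fold higher with CD4 Treg at its floor of 3 reads over both libraries, taking the 171 reads as exact. Fcgr3 rose by 3.60 ± 0.56 on the log2 scale (SE, adjusted p = 0.00240) and Fcer1g by 4.10 ± 1.08 (0.0313). The inhibitory Fcgr2b rose by 2.54 ± 0.51 (adjusted p = 0.00909) and Klrb1c by 2.31 ± 0.52 (0.0163). Activating and inhibitory Fc receptor genes thus both stood higher in CD8 Treg. Klrb1f was at 1.05 (interval -0.27 to 2.36, adjusted p = 0.271) and Klrb1b at 0.51 (interval -0.88 to 1.91, adjusted p = 0.635), and neither passed. The median of the 7 was 2.54, also with Ncr1 at its bound, and that of all genes tested 0.02. The size for Fcer1g rests on which CD4 Treg library is used: it was 5.83 without replicate 1 and 2.37 without replicate 2, and the calls of Fcer1g and Klrb1c were lost without the filter on low reads (adjusted p = 0.166 and 0.0898) and with a constant prior (0.188 and 0.102), and that of Fcer1g also with a pseudocount of 0.1 (0.0639). Where genes with no variance between replicates were kept in the prior of limma and either CD49lo library was left out, 0 of the genes passed in this comparison and in that of CD4 Treg with CD49lo, with 4 and 5 at an unadjusted p under 0.05.

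Between CD4 Treg and CD49lo, 6 of the 7 members fell in CD4 Treg and none rose. Of all genes 22.1% were called, 12.7% lower and 9.41% higher. Ncr1, with no read in CD4 Treg and 135 in CD49lo, was lower (adjusted p = 0.000170). The fold was at least 35.1 with the same floor, taking the 135 reads as exact. The log2 fold change was -4.83 ± 0.88 for Fcer1g (SE, adjusted p = 0.00394), -3.96 ± 0.46 for Fcgr3 (0.000285) and -3.10 ± 0.42 for Fcgr2b (0.000709). In the NKR-P1 family it was -2.48 ± 0.43 for Klrb1c (adjusted p = 0.00289) and -2.39 ± 0.47 for Klrb1f (0.00612), while Klrb1b was at -0.93 (interval -2.07 to 0.21, adjusted p = 0.236). The median of the 7 was -3.10, also with Ncr1 at its bound, against -0.03 over all genes tested. Fcer1g was at -6.56 without CD4 Treg replicate 1 and at -3.09 without replicate 2, and its call was lost without the filter (adjusted p = 0.0588) and with a constant prior (0.0774). The 3 comparisons share libraries, so their fold changes are not independent of each other.

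**Figure D2:**
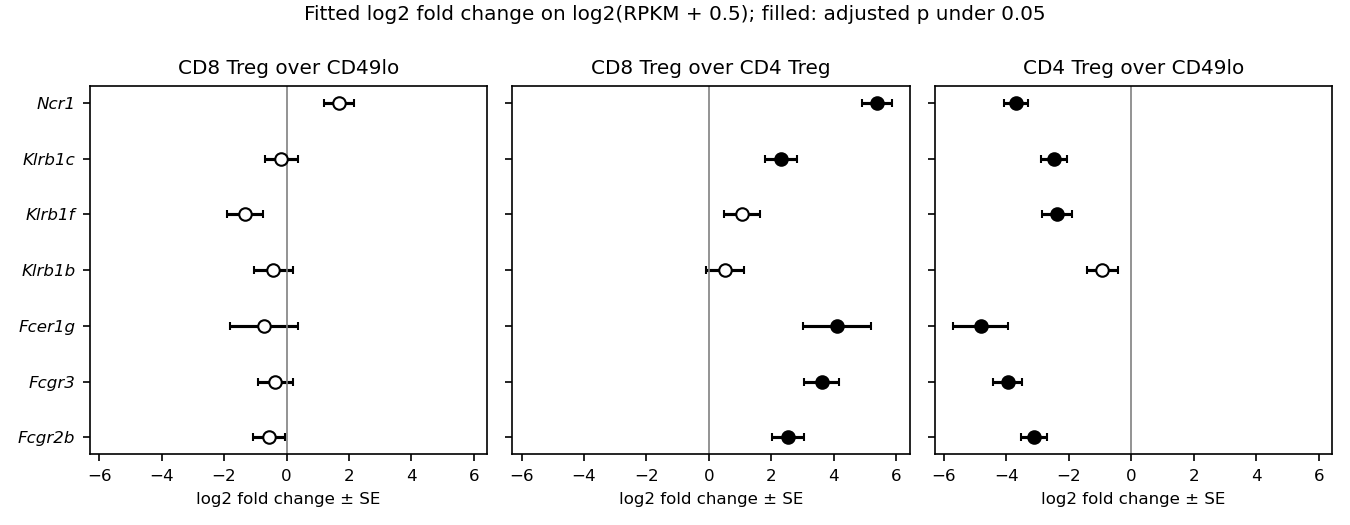
Fitted log2 fold change (x axis, on log2(RPKM + 0.5)) of the 7 tested genes in each comparison, with bars of 1 SE; filled points passed an adjusted p of 0.05. None is filled in CD8 Treg over CD49lo, 5 are filled to the right of 0 in CD8 Treg over CD4 Treg, and 6 to the left of 0 in CD4 Treg over CD49lo. Against CD4 Treg, where Ncr1 has no read, its fitted value depends on the pseudocount and is no bound.

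Of 15 further Fc receptor and Fc receptor-like genes, 10 could be tested. In CD8 Treg over CD4 Treg 3 were higher and none lower, and in CD4 Treg over CD49lo 7 were lower and none higher. Fcamr, a receptor for IgM and IgA, had its highest level in a CD4 Treg library and passed in none of the comparisons, with 0.0876 RPKM in CD8 Treg (1 read), 0 and 1.27 RPKM in CD4 Treg (0 and 13 reads), and 0.0637 and 0 RPKM in CD49lo (1 and 0 reads). Fcgrt encodes the neonatal Fc receptor, which protects IgG from breakdown, and had the highest level of them in CD8 Treg: 44.9 RPKM in CD8 Treg, 0.835 and 0.423 RPKM in CD4 Treg, and 24.6 and 27.3 RPKM in CD49lo. It rose by 5.46 ± 0.35 in CD8 Treg over CD4 Treg (adjusted p = 1.95e-05), and its CD8 Treg over CD49lo value of 0.92 ± 0.35 did not pass (adjusted p = 0.192). Fcer2a (CD23, the low-affinity IgE receptor of B cells) was at 4.85 RPKM in CD8 Treg, 0.144 and 0 RPKM in CD4 Treg, and 8.65 and 16.7 RPKM in CD49lo. Fcrla, an Fc receptor-like gene of B cells, was at 4.41 RPKM in CD8 Treg, 0.576 and 0 RPKM in CD4 Treg, and 8.06 and 10.8 RPKM in CD49lo. Both rose in CD8 Treg over CD4 Treg (adjusted p = 0.00225 and 0.00825). Between CD8 Treg and CD49lo 2 of the 10 fell. Fcgr4, an activating IgG receptor of monocytes and neutrophils that also needs FcRγ, was at 0.655 RPKM in CD8 Treg, 0 and 0 RPKM in CD4 Treg, and 9.53 and 8.98 RPKM in CD49lo, and fell by 2.98 ± 0.51 in CD8 Treg over CD49lo (adjusted p = 0.0112). Faim3, the IgM Fc receptor gene, was at 8.23 RPKM in CD8 Treg, 6.35 and 4.94 RPKM in CD4 Treg, and 21.8 and 34.0 RPKM in CD49lo, and fell by 1.54 ± 0.33 (adjusted p = 0.0330). The IgE receptor chains that pair with FcRγ on mast cells and basophils were near 0: Fcer1a had 0 reads in CD8 Treg and in CD4 Treg and 2 and 4 reads in CD49lo, and Ms4a2 had 9 reads in CD8 Treg, 0 in CD4 Treg, and 0 and 14 in CD49lo. The median log2 fold change of the 10 was -0.54 in CD8 Treg over CD49lo, 1.24 in CD8 Treg over CD4 Treg and -2.05 in CD4 Treg over CD49lo. With genes that had no read in CD4 Treg set at the bound of 3 reads, the median became 2.10 in CD8 Treg over CD4 Treg and -2.93 in CD4 Treg over CD49lo.

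The adaptors and kinases that act below ITAM receptors changed in both directions. Of 18 such genes, in CD8 Treg over CD4 Treg 8 were higher and 4 lower, in CD4 Treg over CD49lo 9 were lower and 3 higher, and in CD8 Treg over CD49lo 1 was lower and none higher. Tyrobp encodes DAP12, an ITAM adaptor alternative to FcRγ, and was at 42.3 RPKM in CD8 Treg, 0.286 and 0.326 RPKM in CD4 Treg, and 71.3 and 86.4 RPKM in CD49lo, a rise of 5.83 ± 0.39 in CD8 Treg over CD4 Treg (adjusted p = 2.61e-05). The kinase Syk was at 11.5 RPKM in CD8 Treg, 1.20 and 0.377 RPKM in CD4 Treg, and 23.2 and 27.3 RPKM in CD49lo, and rose by 3.40 ± 0.36 in CD8 Treg over CD4 Treg (adjusted p = 0.000301). Plcg2, the phospholipase used by B and NK cells, and the Src-family kinase Lyn rose by 3.65 ± 0.31 and 2.64 ± 0.29 (adjusted p = 9.81e-05 and 0.000375). These 4 genes also fell in CD4 Treg over CD49lo, with log2 fold changes of -6.58 for Tyrobp, -4.36 for Syk, -4.39 for Plcg2 and -3.45 for Lyn (adjusted p of 2.30e-06 to 1.66e-05). The 4 genes that fell in CD8 Treg over CD4 Treg were Cd247, the CD3ζ chain, which can also pair with NKp46 (-0.86 ± 0.13, adjusted p = 0.00194), the adaptors Lcp2 (-0.80 ± 0.13, 0.00262) and Lat (-0.63 ± 0.12, 0.00594), and the exchange factor Vav3 (-1.59 ± 0.21, 0.00107). Zap70 was at 99.1 RPKM in CD8 Treg, 77.8 and 97.9 RPKM in CD4 Treg, and 84.6 and 87.2 RPKM in CD49lo and passed in none of the comparisons. In CD8 Treg over CD49lo only Lat passed, falling by 0.59 ± 0.12 (adjusted p = 0.0212). The median of the 18 was -0.26 in CD8 Treg over CD49lo, 0.64 in CD8 Treg over CD4 Treg and -0.58 in CD4 Treg over CD49lo.

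**Figure D3:**
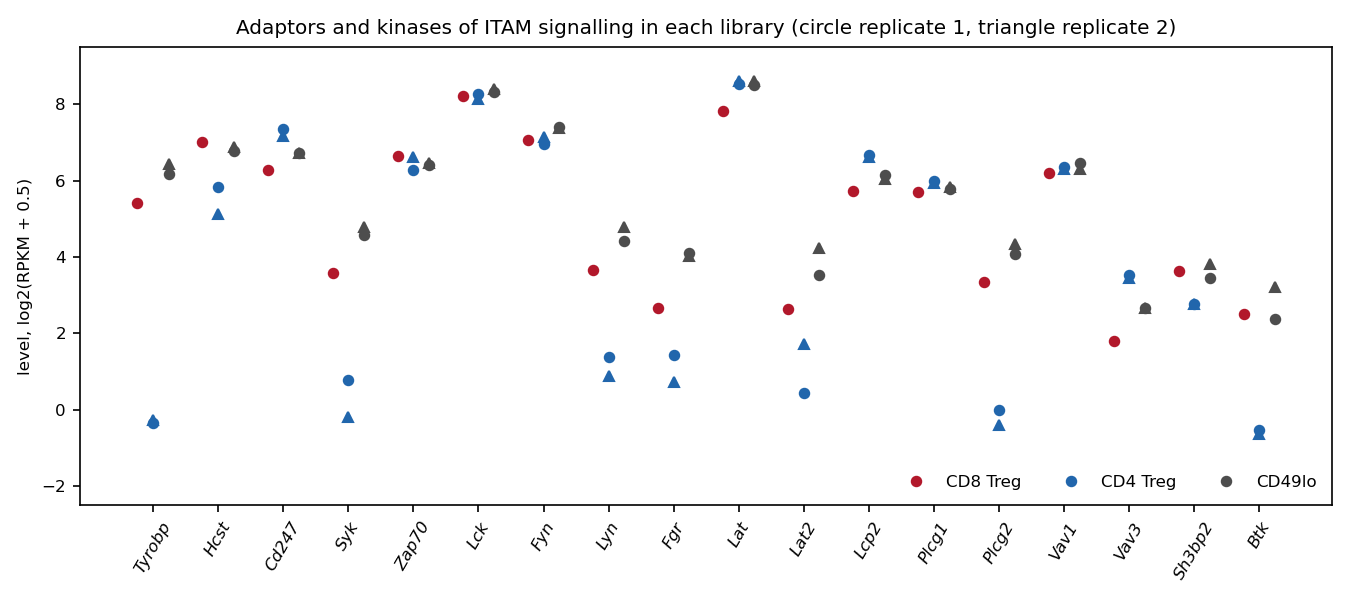
Level of 18 adaptor and kinase genes (y axis, log2(RPKM + 0.5)) in each library, coloured by group. Tyrobp, Syk, Lyn, Plcg2 and Btk are lowest in both CD4 Treg libraries, whereas Cd247 and Lcp2 are lowest in CD8 Treg (77.3 and 52.8 RPKM).

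Of 12 genes of phosphatases and other brakes that ITIM receptors use, 2 rose and 1 fell in CD8 Treg over CD4 Treg, 1 fell and 1 rose in CD4 Treg over CD49lo, and none passed in CD8 Treg over CD49lo, where 3 had an unadjusted p under 0.05. Ptpn6, the gene of the phosphatase SHP-1, was at 249 RPKM in CD8 Treg, 132 and 117 RPKM in CD4 Treg, and 188 and 206 RPKM in CD49lo. It rose by 1.11 ± 0.13 in CD8 Treg over CD4 Treg (adjusted p = 0.000538) and fell by 0.63 ± 0.11 in CD4 Treg over CD49lo (0.00255). Pag1, an adaptor that anchors the inhibitory kinase Csk, rose by 0.74 ± 0.18 in CD8 Treg over CD4 Treg (adjusted p = 0.0196), and Ubash3a, which damps T cell receptor signals, fell by 0.56 ± 0.16 (0.0373). Inpp5d, the gene of the phosphatase SHIP-1 that FcγRIIB recruits, was at 41.4 RPKM in CD8 Treg, 54.2 and 46.9 RPKM in CD4 Treg, and 50.2 and 42.6 RPKM in CD49lo and passed in none of the comparisons (adjusted p of at least 0.459). The median of the 12 was 0.20 in CD8 Treg over CD49lo, -0.18 in CD8 Treg over CD4 Treg and 0.15 in CD4 Treg over CD49lo.

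The ligands of NKR-P1 receptors lie in the same gene complex as their receptors. Clec2d encodes Clr-b, the ligand of the inhibitory NKR-P1B, and was abundant in all libraries: 266 RPKM in CD8 Treg, 402 and 405 RPKM in CD4 Treg, and 286 and 335 RPKM in CD49lo. It fell by 0.49 ± 0.13 in CD8 Treg over CD4 Treg (adjusted p = 0.0301) and rose by 0.41 ± 0.10 in CD4 Treg over CD49lo (0.0206), while its receptor gene Klrb1b reached at most 1.09 RPKM. Clec2i encodes Clr-g, a ligand of NKR-P1F, and was at 18.6 RPKM in CD8 Treg, 14.9 and 17.0 RPKM in CD4 Treg, and 10.2 and 11.5 RPKM in CD49lo. It rose in CD8 Treg over CD49lo by 0.89 ± 0.21 (adjusted p = 0.0432), as did Cd69, an early activation marker of the same complex (0.89 ± 0.21, 0.0454). In CD4 Treg over CD49lo, Clec2i and Cd69 rose by 0.56 ± 0.17 and 1.04 ± 0.17 (adjusted p = 0.0419 and 0.00223). The 6 other genes of the list, among them Klrb1, Clec2e and Clec2h, held at most 4 reads in any library.

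Of 12 transcription factors of NK cells and innate-like lymphocytes, 4 rose and 4 fell in CD8 Treg over CD4 Treg, and 5 fell and 4 rose in CD4 Treg over CD49lo. The T-box factor Eomes was at 82.4 RPKM in CD8 Treg, 1.18 and 0.929 RPKM in CD4 Treg, and 57.0 and 55.2 RPKM in CD49lo. It rose by 5.85 ± 0.20 in CD8 Treg over CD4 Treg (adjusted p = 7.41e-07), as did Tbx21, the gene of T-bet, by 4.75 ± 0.27 (1.07e-05). Gata3 and Prdm1 fell in the same comparison, by 1.38 ± 0.17 and 1.76 ± 0.26 (adjusted p = 0.000646 and 0.00185). In CD8 Treg over CD49lo 3 were lower and none higher. Id2, an E-protein inhibitor required for NK cells, was at 40.8 RPKM in CD8 Treg, 19.3 and 23.4 RPKM in CD4 Treg, and 189 and 232 RPKM in CD49lo, and fell by 2.21 ± 0.19 in CD8 Treg over CD49lo (adjusted p = 0.000531). Ikzf3 and Prdm1 fell by 0.69 ± 0.13 and 1.31 ± 0.26 (adjusted p = 0.0156 and 0.0223). The median of the 12 was -0.07 in CD8 Treg over CD49lo, 0.53 in CD8 Treg over CD4 Treg and -0.52 in CD4 Treg over CD49lo.

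Among markers of other cells that carry these receptors, the summed NK cell and myeloid lists were lowest in both CD4 Treg libraries, as were the 8 genes. The B cell sum, most of it Ighm, was lowest in CD8 Treg instead. That of basophils and mast cells differed little between CD8 Treg and CD4 Treg, but different genes made it up. Nearly all of it in CD4 Treg was Il1rl1 (5.50 and 5.62 of 5.70 and 5.98 RPKM), which gave 0.280 of 6.28 RPKM in CD8 Treg. The 16 NK cell markers outside the group, several of which memory CD8 T cells also use, summed to 382 RPKM in CD8 Treg, 13.8 and 9.93 RPKM in CD4 Treg, and 564 and 2127 RPKM in CD49lo. Gzma had the highest level of the list in CD49lo but not in CD8 Treg or CD4 Treg, at 56.4 RPKM in CD8 Treg, 1.47 and 0.628 RPKM in CD4 Treg, and 304 and 1580 RPKM in CD49lo. Klrd1 (CD94) was the highest in CD8 Treg, at 117 RPKM in CD8 Treg, 0 and 0 RPKM in CD4 Treg, and 81.9 and 157 RPKM in CD49lo. Klrk1 (NKG2D) was at 14.4 RPKM in CD8 Treg, 0.605 and 0.0575 RPKM in CD4 Treg, and 35.0 and 111 RPKM in CD49lo. CD49lo replicate 2, the highest library for Klrb1b, Klrb1c and Klrb1f, was also the highest for these 3. Of the 13 tested, 10 rose and 1 fell in CD8 Treg over CD4 Treg, 9 fell and 1 rose in CD4 Treg over CD49lo, and 1 fell in CD8 Treg over CD49lo. Serpinb9b, Khdc1a and Khdc1b were at 0 in CD8 Treg, Klrd1, Styk1 and Khdc1b in both CD4 Treg libraries, and Gzmc, Khdc1a and Khdc1b in both CD49lo libraries.

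The 16 markers of monocytes, macrophages and neutrophils summed to 322 RPKM in CD8 Treg, 22.2 and 8.09 RPKM in CD4 Treg, and 660 and 615 RPKM in CD49lo. Lyz2 was at 70.8 RPKM in CD8 Treg, 4.20 and 1.89 RPKM in CD4 Treg, and 224 and 271 RPKM in CD49lo. S100a9 was at 94.5 RPKM in CD8 Treg, 5.90 and 0 RPKM in CD4 Treg, and 170 and 92.5 RPKM in CD49lo, and Ccr2 at 28.4 RPKM in CD8 Treg, 5.26 and 3.63 RPKM in CD4 Treg, and 63.5 and 82.3 RPKM in CD49lo. Of the 15 tested, 13 were higher in CD8 Treg over CD4 Treg, 14 were lower in CD4 Treg over CD49lo and 3 were lower in CD8 Treg over CD49lo. Ly6g was at 0 in CD8 Treg and in 1 CD49lo library, 3 markers were at 0 in CD4 Treg replicate 1 and 9 in replicate 2. The replicate with Fcer1g reads was thus also the CD4 Treg library with more of these markers. The 15 B cell markers in the table summed to 406 RPKM in CD8 Treg, 469 and 553 RPKM in CD4 Treg, and 719 and 599 RPKM in CD49lo. Ighm made up most of it, at 285 RPKM in CD8 Treg, 444 and 521 RPKM in CD4 Treg, and 518 and 336 RPKM in CD49lo. Cd79a was at 18.6 RPKM in CD8 Treg, 0.775 and 1.14 RPKM in CD4 Treg, and 29.2 and 46.9 RPKM in CD49lo, and Cd79b at 16.7 RPKM in CD8 Treg, 6.08 and 9.12 RPKM in CD4 Treg, and 37.0 and 39.4 RPKM in CD49lo. Of the B cell markers, 12 were higher in CD8 Treg over CD4 Treg, 13 were lower in CD4 Treg over CD49lo and none passed in CD8 Treg over CD49lo, where 6 had an unadjusted p under 0.05. None was at 0 in CD8 Treg or CD49lo, and 3 were at 0 in each CD4 Treg library. The part of NK, myeloid and B cells in the levels of the 8 genes was not tested.

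Gamma-delta T and NKT cell markers (9 genes) summed to 27.6 RPKM in CD8 Treg, 13.3 and 9.16 RPKM in CD4 Treg, and 27.2 and 109 RPKM in CD49lo, with Tcrg-C2 at 12.8 RPKM in CD8 Treg, 0.961 and 2.56 RPKM in CD4 Treg, and 21.7 and 84.8 RPKM in CD49lo. Tcrg-C4 was at 1.79 RPKM in CD8 Treg, 2.50 and 1.71 RPKM in CD4 Treg, and 2.04 and 13.2 RPKM in CD49lo. Cd163l1, a gamma-delta T cell gene, was at 5.77 RPKM in CD8 Treg, 0 and 0 RPKM in CD4 Treg, and 0.139 and 0.309 RPKM in CD49lo and rose by 3.23 in CD8 Treg over CD49lo on the log2 scale (adjusted p = 0.0107). Of the 6 tested, 1 rose in CD8 Treg over CD49lo, 2 rose and 1 fell in CD8 Treg over CD4 Treg, and 1 rose and 1 fell in CD4 Treg over CD49lo. Dendritic cell markers (12 genes) summed to 32.1 RPKM in CD8 Treg, 55.6 and 43.4 RPKM in CD4 Treg, and 100 and 104 RPKM in CD49lo. Of these, 5 fell in CD8 Treg over CD49lo, 2 rose and 2 fell in CD8 Treg over CD4 Treg, and 8 fell in CD4 Treg over CD49lo. Bst2, which other cells also express, made up most of the sum in CD8 Treg and CD4 Treg, at 21.1 RPKM in CD8 Treg, 47.9 and 37.5 RPKM in CD4 Treg, and 36.3 and 40.1 RPKM in CD49lo, and fell in CD8 Treg over CD4 Treg (adjusted p = 0.0433). Itgax was at 5.09 RPKM in CD8 Treg, 0.120 and 0 RPKM in CD4 Treg, and 23.3 and 25.4 RPKM in CD49lo, and Siglech at 1.14 RPKM in CD8 Treg, 0.210 and 0 RPKM in CD4 Treg, and 11.3 and 11.5 RPKM in CD49lo. Basophil and mast cell markers (11 genes) summed to 6.28 RPKM in CD8 Treg, 5.70 and 5.98 RPKM in CD4 Treg, and 9.98 and 8.08 RPKM in CD49lo. Of the 6 tested, 1 fell in CD8 Treg over CD49lo, 1 rose and 1 fell in CD8 Treg over CD4 Treg, and 1 rose and 2 fell in CD4 Treg over CD49lo. Il1rl1 was at 0.280 RPKM in CD8 Treg, 5.50 and 5.62 RPKM in CD4 Treg, and 0.610 and 0.0862 RPKM in CD49lo. Csf2rb2 was at 0.428 RPKM in CD8 Treg, 0.0350 and 0 RPKM in CD4 Treg, and 4.13 and 3.67 RPKM in CD49lo, and Kit at 1.63 RPKM in CD8 Treg, 0.123 and 0.0701 RPKM in CD4 Treg, and 2.01 and 1.42 RPKM in CD49lo. The 12 alpha-beta T cell markers summed to 2976 RPKM in CD8 Treg, 3285 and 3287 RPKM in CD4 Treg, and 3251 and 3537 RPKM in CD49lo. Besides Cd8b1, the highest were Cd3g, at 681 RPKM in CD8 Treg, 1007 and 926 RPKM in CD4 Treg, and 806 and 860 RPKM in CD49lo, and Trac, at 521 RPKM in CD8 Treg, 603 and 654 RPKM in CD4 Treg, and 394 and 568 RPKM in CD49lo. Of the 12, 1 fell in CD8 Treg over CD49lo, 2 rose and 5 fell in CD8 Treg over CD4 Treg, and 5 rose and 2 fell in CD4 Treg over CD49lo.

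**Figure D4:**
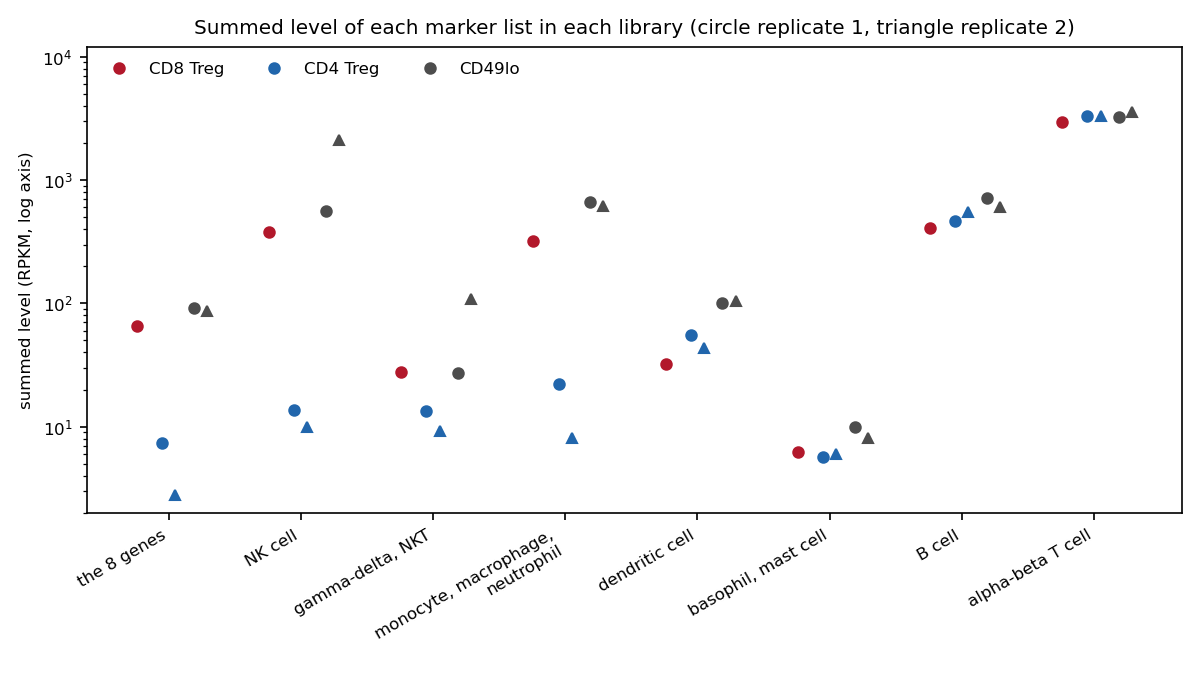
Summed level (RPKM, log axis) of the 8 genes and of each marker list in every library, coloured by group. The 8 genes, the NK cell markers and the monocyte, macrophage and neutrophil markers are lowest in both CD4 Treg libraries, while the alpha-beta T cell markers lie between 2976 and 3537 RPKM in all 5.

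Profiles over the 5 libraries were compared with those of 11520 tested genes by the Euclidean distance of log2(RPKM + 0.5), each centred on its own mean. The nearest genes to Ncr1 were Klra8 (distance 0.73), Ctla2a (0.81) and Lcn4 (0.86), with a median of 4.87 over all genes. Klra8, which encodes the receptor Ly49H, was at 12.6 RPKM in CD8 Treg, 0 and 0 RPKM in CD4 Treg, and 2.84 and 4.53 RPKM in CD49lo. Fcgr3 was nearest to Sirpa (0.16), Alox5ap (0.26) and Slc40a1 (0.40), against a median of 4.32. Fcer1g was nearest to C1qb (0.91), Igj (1.02) and Csf1r (1.37), against a median of 5.65, and C1qb also had reads in CD4 Treg replicate 1 (4.74 RPKM) and none in replicate 2. Fcgr2b was nearest to Cercam (0.24), Tlr9 (0.31) and Ebf1 (0.34), against a median of 3.30. In the NKR-P1 family, Klrb1f was nearest to Rac3 (0.10), Klra17 (0.38) and H2-Q10 (0.39), Klrb1c to Adamts14 (0.51), Hes1 (0.55) and Cercam (0.59), and the low Klrb1b to Slc25a2 (0.24), Itga9 (0.26) and Neat1 (0.27). With 5 libraries these distances are a description.

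A RefSeq promoter was found for all 8 genes, and 4 motifs were searched on both strands in the 250 bases before the start. This start can differ from that of the gene model behind the RPKM. The windows of Klrb1c, Fcgr3 and Fcgr2b lie inside the gene model, and those of Klrb1b and Fcer1g partly so. For Fcgr3, on the minus strand, the window is chr1:171059404-171059653 and the gene model reaches to 171064935. The RUNX core TGTGGT was in the promoters of Klrb1a, Klrb1c and Ncr1 (3 of 8, printed above) and in 14.2% of 27025 promoters. The PU.1 motif GAGGAAG was in those of Fcgr3, Klrb1a and Klrb1c (3 of 8) and in 10.4% of all. Klrb1a and Klrb1c count for both motifs, and their printed promoters share long stretches, so their matches are not independent. The T-box motif TCACACC and the STAT motif TTCNNNGAA were in none of the 8 and in 3.31% and 7.14% of all promoters, which says only that these letters are not in these windows. No match overlapped another.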

How the data were processed

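RNA was measured by sequencing in 5 libraries of sorted mouse spleen T cells. The deposited table is presented as counts but holds RPKM computed by the authors for each gene and library. CASAVA, STAR and the mm10 genome are named in the submitters' processing notes, with no versions. Strand setting, read length and the handling of reads that match several genes are not given in the sources used here. The RPKM times gene length came out as whole multiples of the worth of 1 read (100% of values, to within 0.02), which gave back the reads and the depth.

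RPKM were divided by trimmed mean of M values factors (0.934 to 1.04, own code) and limma 3.58.1 (R 4.3.3) was fitted to log2(RPKM + 0.5), with 3 groups, 5 libraries and 2 residual degrees of freedom. Genes with 15 reads in total and 10 in some library once scaled to the median depth were tested (13298 of 35275), with an empirical Bayes prior that follows the mean log2(RPM + 0.5). P-values are two-sided, with the Benjamini-Hochberg adjustment made over every gene tested. With 1 library, CD8 Treg takes its spread from the 2 groups that have replicates. The 1 gene without residual variance was left out of the estimate of the prior, a choice made after seeing the data. The script was tested on simulated data with known changes.

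The members and gene lists were chosen with earlier results of these data known, so no adjustment over a list is given. Named are all members, up to 4 called genes per pathway list and comparison with the smallest adjusted p and those that moved against the majority, the 3 highest genes per marker list and the 3 nearest profiles per member; Inpp5d, Zap70, Fcamr, Fcer1a, Ms4a2, Klrb1, Clec2e, Clec2h, the markers at 0, the further genes in the plot of adaptor genes and the lineage genes fall outside that rule and were chosen after their values were seen. Several lists share genes (Eomes, Fcgr1, Fcrla, Fcer1a, Ms4a2, Cd247, Lck, Zbtb16). Alternatives were other pseudocounts, scalings, filters and priors, limma-voom on the recovered reads, fits of fewer libraries and a replicate block. Replicates differed by more than sampling noise (chi-square per degree of freedom 5.26 in CD4 Treg and 11.1 in CD49lo). Sequences came from RefSeq (GRCm38.p6) and GENCODE M21; all 5 sample columns were used. Some genes of the adaptor and kinase list are not reported here.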

Additional observations from a re-analysis of the deposited data

How the results depend on the processing

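The number of the 7 genes called in CD8 Treg over CD49lo was 0 and became 1 (Ncr1) with limma-voom, in the fit of the libraries compared and without either CD4 Treg library (range 0 to 1 over the left-out replicates). In CD8 Treg over CD4 Treg it was 5, and 3 without the filter or with a constant prior. In CD4 Treg over CD49lo it was 6, and 5 under those settings. Over all genes, 693, 2235 and 2943 were called in the 3 comparisons in that order. A constant prior gave 2, 1178 and 1959, and no filter gave 273 in CD8 Treg over CD49lo, where the libraries compared alone gave 1183. Leaving out each replicate gave 979 to 1210, 1914 to 3051 and 2329 to 3120. With genes of zero variance kept in the prior, an alternative added after seeing the data, the left-out replicates gave 0 to 131, 0 to 843 and 0 to 1372 genes (57, 730 and 1215 without CD4 Treg replicate 1), and 0 to 3 and 0 to 5 of the 7 genes in both comparisons with CD4 Treg. In these fits without a CD49lo library, where limma called 0 of all genes, 2203 to 3636 had an unadjusted p under 0.05 and limma-voom on all libraries called 671, 1785 and 2901. Fits with 1 residual degree of freedom estimate the spread from little, so more calls there do not show more precision. Klrb1c in CD8 Treg over CD49lo was at -0.73 without CD49lo replicate 1 and turned to 0.39 without replicate 2; the cause was not tested. Without scaling, 20.3% of the calls in CD8 Treg over CD49lo were higher, against 32.2%, and the median of all genes was -0.16 instead of -0.04. No filter and limma-voom put that share at 50.9% and 51.4%. Libraries of CD4 Treg and CD49lo with the same replicate number showed no shared deviation over genes (correlation -0.02). With 2 libraries per group this cannot show whether they were paired. The fit with the replicate block, of CD4 Treg and CD49lo alone, called all 6 members that it tested and 3569 of 12014 genes. Klrb1b was not tested in it. No paired analysis was possible for CD8 Treg because it has 1 library. Low reads limit Klrb1a and Klrb1b, and CD8 Treg has no replicate. Of the fold changes of the 7 genes recomputed on the same 5 libraries, 160 values kept their direction and side of the threshold, 7 no longer passed, 1 newly passed and 0 turned sign; with fewer libraries these numbers were 153, 29, 3 and 2.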
